A study of Mus musculus with 6 samples.

Results

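The TGF-β ligands and the proteins that hold them in latent form were followed in mouse airway epithelial organoid cultures with and without added TGF-β1. The group comprised the ligand genes Tgfb1, Tgfb2 and Tgfb3, the latent TGF-β binding protein (LTBP) genes Ltbp1, Ltbp2, Ltbp3 and Ltbp4, and the membrane anchors Lrrc32 and Nrros. These 9 genes were chosen by name as the members of the family, by a rule that uses no measured value though earlier results of these data were known, and were found among the 22910 genes of the array through the transcript accessions of their probes. All 9 were tested, among 14345 genes tested in all. The cells came from the lung airways of C57BL/6 mice, were expanded as organoids and were then plated flat in 6-well plates, which gives the cultures called 2D-MAOs. The control group and the TGF-β1 group were both kept in medium that lacked noggin, an inhibitor of bone morphogenetic proteins, and A83-01, an inhibitor of the type I TGF-β receptor. The TGF-β1 group also received TGF-β1 protein from day 3, the control group did not, and both were collected on day 7. The age of the mice and the concentration used for the arrays were not given in the sources used here. Each group had 3 replicates, and nothing says whether the cultures came from separate animals, so the p-values measure only the spread between these cultures.

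TGF-β is made as a precursor whose prodomain, the latency-associated peptide, stays wrapped around the mature ligand after cleavage by furin and keeps it from its receptors. In most cells the latent complex is joined by a disulphide bond to an LTBP, which is secreted with it and ties it to fibrillin and fibronectin in the extracellular matrix. Lrrc32 (GARP) and Nrros (LRRC33) take the place of an LTBP at the cell surface, where integrins then pull the ligand free. In the airway the epithelium both makes and activates TGF-β, and its αvβ6 integrin is a known activator. The array measured RNA of the cells only, so that the added protein did not contribute to the Tgfb1 signal.

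The signal of a probe was the background-subtracted brightness of its spot, on the log2 scale after quantile normalisation, and changes were read between arrays and not between probes. Signals of different probes were compared to choose the brightest probe of a gene, and were added in the summed levels of lists. Between 55.0% and 59.0% of probes were well above background on each array, meaning that the scanner software found the spot clearly brighter than its surroundings. TGF-β1 replicate 3 stood apart from its group. Its distance over all genes was 61.1 and 62.3 to the other TGF-β1 arrays but 54.4 to 60.9 to the controls, whereas the other pair of TGF-β1 arrays were 32.3 apart. It also shared slide row 2 with control replicate 3, the other 4 arrays being in row 1, and calls that rest on it are given with and without it. Of 15 airway epithelial markers all but Muc5b, a secretory mucin, were tested, and the summed level of the list was 18.3 to 18.4 (log2) in controls and 18.2 to 18.7 with TGF-β1. Such a level is the log2 of the added linear signals of a list, undetected genes included, so the brightest probes set it. It does not measure how many cells of a type there were. Within that list Foxj1, the regulator of ciliated cells, rose by 1.47 on the log2 scale (adjusted p = 0.00239 in limma). The club cell marker Scgb1a1 was at -2.27 and the epithelial factor Elf3 at -0.94, both without overlap but not called, with adjusted p of 0.158 and 0.152 in limma, and these 3 were named after their values were seen.

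The promoters of the genes that the results turn on are shown here, so that the letters can be read beside the changes. Windows were found for 7 of the 9 genes in the set of RefSeq promoters used here, which held none for Tgfb3 and Lrrc32. These made 10 windows because a gene can have several starts. Each sequence is the 250 bases before a transcript start on assembly GRCm38.p6, read 5′ to 3′ on the strand of the gene. Capitals mark CAGAC or its reverse complement GTCTG, the core of the Smad-binding element to which the Smad proteins downstream of TGF-β can bind. Ltbp2 is shown as the gene with the largest difference in the family on background-subtracted signals, Ltbp1 because it has a pair of starts, and Tgfb2 as a ligand whose signals overlapped between the groups. The windows lie at chr12:84876492-84876741 on the minus strand for Ltbp2, at chr17:75005279-75005528 and chr17:75178531-75178780 on the plus strand for the first and second start of Ltbp1, and at chr1:186705990-186706239 on the minus strand for Tgfb2.
Ltbp2: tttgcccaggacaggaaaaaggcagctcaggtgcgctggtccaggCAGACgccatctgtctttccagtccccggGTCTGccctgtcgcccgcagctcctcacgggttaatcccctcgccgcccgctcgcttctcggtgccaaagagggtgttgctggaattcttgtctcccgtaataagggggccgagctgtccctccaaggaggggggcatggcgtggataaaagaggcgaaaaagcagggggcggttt
Ltbp1, first start: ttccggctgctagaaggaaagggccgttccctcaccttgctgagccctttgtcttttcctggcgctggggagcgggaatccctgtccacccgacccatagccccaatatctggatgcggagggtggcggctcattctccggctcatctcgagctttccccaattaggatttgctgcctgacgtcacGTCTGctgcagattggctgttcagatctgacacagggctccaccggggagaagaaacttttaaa
Ltbp1, second start: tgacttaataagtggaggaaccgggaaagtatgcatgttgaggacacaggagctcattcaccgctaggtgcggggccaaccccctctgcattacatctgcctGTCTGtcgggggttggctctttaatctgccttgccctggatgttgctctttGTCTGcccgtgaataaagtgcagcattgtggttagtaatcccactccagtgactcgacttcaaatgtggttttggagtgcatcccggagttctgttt
Tgfb2: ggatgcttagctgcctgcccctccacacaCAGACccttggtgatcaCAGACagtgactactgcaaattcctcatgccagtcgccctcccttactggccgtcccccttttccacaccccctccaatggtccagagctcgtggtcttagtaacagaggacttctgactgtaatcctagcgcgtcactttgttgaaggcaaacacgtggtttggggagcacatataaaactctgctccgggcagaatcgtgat

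The Ltbp2 window held CAGAC 205 and 176 bases before the start, and the Tgfb2 window held it 221 and 204 bases before the start. In Ltbp1 it lay 64 bases before the first start, and 148 and 97 bases before the second. Single matches lay 58 bases before the start of Ltbp3 and 177 bases before that of Nrros. In all, 6 of the 10 windows held CAGAC on either strand, and 42.2% of 32817 mouse promoter windows of the same length did. The GC-rich Smad motif GGCGC was in 4 of the 10 windows, those of Tgfb1, 2 of the 3 starts of Ltbp4 and the first start of Ltbp1, against 32.0% of all windows. The palindrome GTCTAGAC, the AP-1 motif TGANTCA and the TEAD motif GGAATG, searched on both strands, had no match in the 10 windows and were present in 0.168%, 6.75% and 12.6% of all windows. None of these motifs contains another. A match says only that the letters are present, and the changes described below were not set against it.

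With TGF-β1, Ltbp2 and the membrane anchor Lrrc32 rose, by log2 differences of 4.03 and 2.35 on background-subtracted signals and of 1.76 and 1.00 with normexp, a background correction that draws dim signals together. The signals of the 3 ligand genes overlapped between the groups. A gene was called changed when limma, a linear model fitted to all 14345 genes, gave it an adjusted p (Benjamini-Hochberg) below 0.05 and a difference of at least 2-fold. By this rule 2 of the 9 genes rose and 0 fell, where 1.19% of all genes tested rose and 0.188% fell. The 3 control arrays lay wholly below the 3 TGF-β1 arrays for 6 of the 9 genes, all 4 LTBPs and both anchors, against 12.9% of all genes. All 9 fitted differences were above 0, as were 45.8% of those of all genes, although that of Tgfb2 turned to -0.12 when arrays were scaled to the 75th percentile of their signal. The median log2 difference of the 9 genes was 0.80, while over all genes the median was -0.03, the 5th percentile -0.56 and the 95th percentile 0.73. The cultures were measured in bulk, so that more cells of a type and more RNA per cell cannot be told apart.

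**Figure D1:**
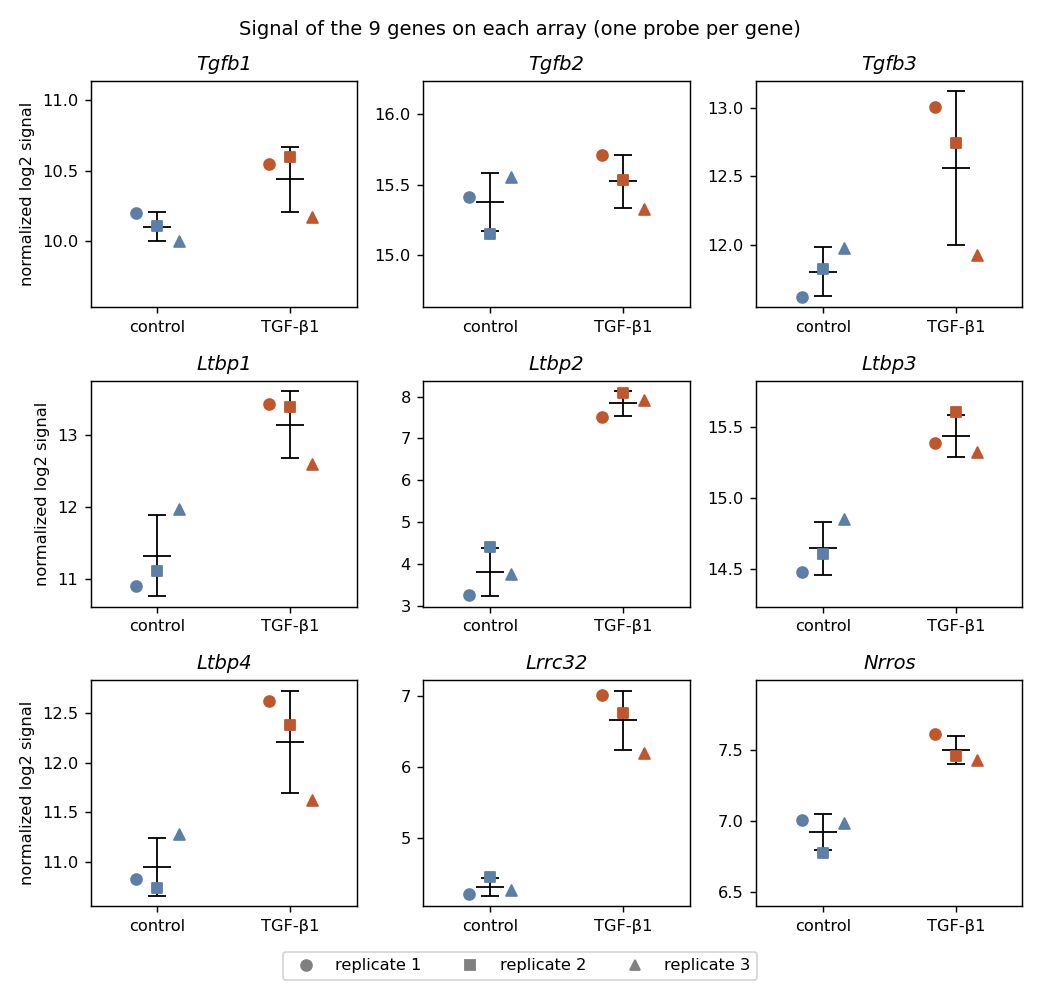
Normalised log2 signal (vertical axis, own range in each panel) of the 9 genes on the 3 control and 3 TGF-β1 arrays, one probe per gene; points are arrays, with the shape giving the replicate, and bars are the mean ± SD of 3. Control and TGF-β1 points do not overlap for the 4 LTBPs, Lrrc32 and Nrros and do overlap for the 3 ligands, and TGF-β1 replicate 3 is the lowest TGF-β1 array for 8 of the 9 genes.

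Of the ligands, Tgfb1 encodes the isoform that was added as protein. Its signal was 10.20, 10.11 and 10.00 in control replicates 1 to 3 and 10.55, 10.59 and 10.18 with TGF-β1. TGF-β1 replicate 3 lay below control replicate 1, so the groups overlapped. The groups differed by 0.33 ± 0.14 on the log2 scale (SE, n = 3 per group; 95% interval -0.01 to 0.68), with an adjusted p of 0.233 in limma. Without TGF-β1 replicate 3 the difference was 0.47 with an adjusted p of 0.0446 in limma, still under 2-fold. The second Tgfb1 probe gave 0.12, with a 95% interval of -0.24 to 0.49, and its groups also overlapped.

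Tgfb2 encodes the isoform best known from heart and skeletal development. Its signal was 15.42, 15.15 and 15.56 in controls and 15.71, 15.53 and 15.33 with TGF-β1. The highest control array exceeded 2 of the 3 TGF-β1 arrays, and no order between the groups could be read. On the log2 scale the difference was 0.15 ± 0.15 (SE), with a 95% interval of -0.22 to 0.51 and an adjusted p of 0.578 in limma, and the second probe gave 0.17. The exact two-sided permutation p was 0.5, where 0.1 is the smallest that these 6 arrays allow.

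Tgfb3 encodes the third isoform, known for its part in lung and palate development. Its signal was 11.62, 11.82 and 11.98 in controls and 13.01, 12.75 and 11.93 with TGF-β1. TGF-β1 replicates 1 and 2 lay above every control and replicate 3 lay just under control replicate 3. The groups differed by 0.75 ± 0.28 on the log2 scale (SE), the largest difference of the ligands, with a 95% interval of 0.10 to 1.41, but it did not pass the test with an adjusted p of 0.187 in limma. Within slide row 1 the difference was 1.15, and within row 2, with 1 array per group, it was -0.05. Without TGF-β1 replicate 3 it was 1.07 at an adjusted p of 0.0131 in limma, which met the call, so that its call rested on that array. The exact two-sided permutation p was 0.2 for Tgfb3 and 0.2 for Tgfb1.

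Ltbp2 had the largest difference in the family on background-subtracted signals, where it ranked 13th of the 14345 genes, but with normexp background Ltbp1 was at 1.78 and Ltbp2 at 1.76. It is the LTBP that does not bind latent TGF-β itself and is known as a partner of fibrillin microfibrils. Its signal was 3.25, 4.41 and 3.76 in controls and 7.51, 8.08 and 7.92 with TGF-β1. Every TGF-β1 array, replicate 3 among them, lay far above every control, and the spread within each group was small beside the gap. The log2 difference was 4.03 ± 0.30 (SE, n = 3 per group; 95% interval 3.31 to 4.75), or 16.4-fold on the fitted values, with an adjusted p of 0.00316 in limma. Only 1 of the 3 control arrays was well above background, so this fold, its p-value and the rank rest on control signals near background. The smallest possible exact permutation p of 0.1 was reached.

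The size of the Ltbp2 difference depended on the treatment of the background, as only 1 of the 3 control arrays, replicate 2, was well above it. Before subtraction the spot was 1.69, 2.11 and 1.56 times as bright as its surroundings in controls, against 8.10, 9.43 and 9.37 times with TGF-β1. The probe would have passed the filter on its TGF-β1 arrays alone. In an alternative chosen after seeing the data, no signal was set lower than the dimmest one well above background on its array. The difference was then 3.74, a lower bound of 13.4-fold, and passed at an adjusted p of 0.00145 in limma. With normexp at an offset of 50 the difference was 1.76 and passed at an adjusted p of 9.43e-04 in limma. The difference was 3.97 within slide row 1 and 4.17 within row 2. The call was made without each array in turn, at log2 differences of 3.75 to 4.31.

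Ltbp1, which binds all 3 latent TGF-β isoforms and takes them into the matrix, differed next most among the LTBPs on background-subtracted signals. Its signal was 10.90, 11.11 and 11.97 in controls and 13.43, 13.39 and 12.60 with TGF-β1. The groups did not overlap, but the replicate 3 arrays lay nearest to each other, the control being the highest of its group and the TGF-β1 array the lowest of its own. This was a log2 difference of 1.81 ± 0.34 (SE; 95% interval 1.01 to 2.61), or 3.51-fold, with an adjusted p of 0.0529 in limma, just short of the threshold. The difference was 2.40 within slide row 1 and 0.63 within row 2. It met the call without control replicate 3 (2.13, adjusted p = 0.0359 in limma) and without TGF-β1 replicate 3 (2.08, adjusted p = 0.0146 in limma), and not without any of the other 4 arrays.

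Ltbp3, which is needed for the secretion of latent TGF-β in many cells, differed less but with a small spread. Its signal was 14.48, 14.60 and 14.85 in controls and 15.39, 15.61 and 15.32 with TGF-β1. The gap between the groups exceeded the range within either of them. On the log2 scale the groups differed by 0.80 ± 0.14 (SE; 95% interval 0.46 to 1.13), or 1.74-fold, with an adjusted p of 0.0462 in limma, so that it passed on p but not on size. That pass was narrow, since scaling to the 75th percentile gave 0.54 at an adjusted p of 0.0969 in limma, no filter gave 0.106, and a slide row block gave 0.0537. Leaving out each array in turn gave adjusted p from 0.0221 to 0.169 in limma. By p alone 3 of the 9 genes were higher, Ltbp2, Lrrc32 and Ltbp3, against 1.63% of all genes. The second Ltbp3 probe gave 0.39, also without overlap, with an adjusted p over all probes of 0.128 in limma.

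Ltbp4, which binds latent TGF-β1 weakly and guides elastic fibre assembly through fibulins, had a difference between those of Ltbp1 and Ltbp3. Its signal was 10.83, 10.74 and 11.29 in controls and 12.62, 12.38 and 11.63 with TGF-β1. As for Ltbp1, the arrays of replicate 3 were the highest control and the lowest TGF-β1 array. This was a log2 difference of 1.26 ± 0.28 (SE; 95% interval 0.60 to 1.92), or 2.39-fold, with an adjusted p of 0.0798 in limma. The second probe gave 1.04 with no overlap between the groups. The difference was 1.72 within slide row 1 and 0.34 within row 2, and without TGF-β1 replicate 3 it was 1.55 and met the call at an adjusted p of 0.0094 in limma. The exact two-sided permutation p was 0.1, the smallest possible, for Ltbp1, Ltbp3 and Ltbp4.

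Lrrc32 encodes GARP, the membrane protein that holds latent TGF-β on regulatory T cells, platelets and endothelium. Its signal was 4.20, 4.45 and 4.26 in controls and 7.01, 6.76 and 6.19 with TGF-β1. The controls were close together and all 3 TGF-β1 arrays lay well above them. Lrrc32 thus had a log2 difference of 2.35 ± 0.22 (SE, n = 3 per group; 95% interval 1.83 to 2.86), a 5.09-fold rise with an adjusted p of 0.00642 in limma and a rank of 62 among all genes. The difference was 2.56 within slide row 1 and 1.93 within row 2, and the call was made without each array in turn, at 2.17 to 2.58. The probe was dim but well above background on all 6 arrays, its spot being 1.79, 1.94 and 1.88 times as bright as the surroundings in controls and 7.10, 5.48 and 3.56 times with TGF-β1. With normexp background the log2 difference was 1.00, at an adjusted p of 0.0128 in limma.

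Nrros encodes LRRC33, the anchor of latent TGF-β1 on macrophages and microglia. Its signal was 7.01, 6.77 and 6.98 in controls and 7.62, 7.46 and 7.43 with TGF-β1. The groups did not overlap and each spanned a narrow range. On the log2 scale the groups differed by 0.58 ± 0.12 (SE; 95% interval 0.30 to 0.86), or 1.49-fold, with an adjusted p of 0.0647 in limma, and it was 0.64 within slide row 1 and 0.45 within row 2. Without TGF-β1 replicate 3 the difference was 0.61 with an adjusted p of 0.0313 in limma, still under 2-fold. The exact two-sided permutation p was 0.1, the smallest possible, for Nrros and for Lrrc32.

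**Figure D2:**
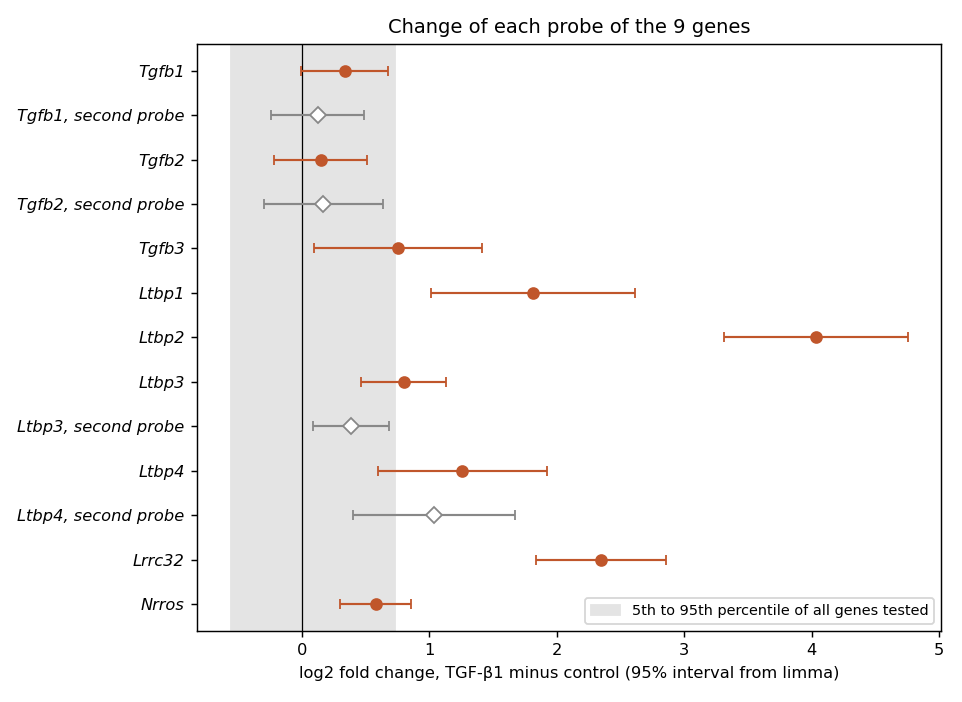
Log2 fold change, TGF-β1 minus control, of the 13 probes of the 9 genes (horizontal axis), with 95% intervals from limma; filled circles are the probe that stands for the gene, open diamonds the second probe, and the grey band runs from the 5th to the 95th percentile of all genes tested (-0.56 to 0.73). On these background-subtracted signals Ltbp2 at 4.03 and Lrrc32 at 2.35 lie farthest to the right, and the intervals of Tgfb1 and Tgfb2 include 0.

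The array that stood apart moved these genes in common. TGF-β1 replicate 3 was the lowest TGF-β1 array for 8 of the 9 genes, all but Ltbp2, which 36.5% of all genes shared, and control replicate 3 was the highest control for 5 of the 9, against 37.9% of all genes. Without TGF-β1 replicate 3 the number of the 9 genes that rose was 5 (Ltbp2, Lrrc32, Ltbp1, Ltbp4 and Tgfb3), while 3.83% of all genes rose. Without control replicate 3 it was 3, with Ltbp1 added, against 1.05% of all genes, and without both arrays of replicate 3 it was 5, against 4.35%. Leaving out control replicate 1, control replicate 2, TGF-β1 replicate 1 or TGF-β1 replicate 2 gave 2 of the 9 genes, against 0.439%, 0.523%, 0.418% and 0.335% of all genes. What set TGF-β1 replicate 3 apart was not tested.

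**Figure D3:**
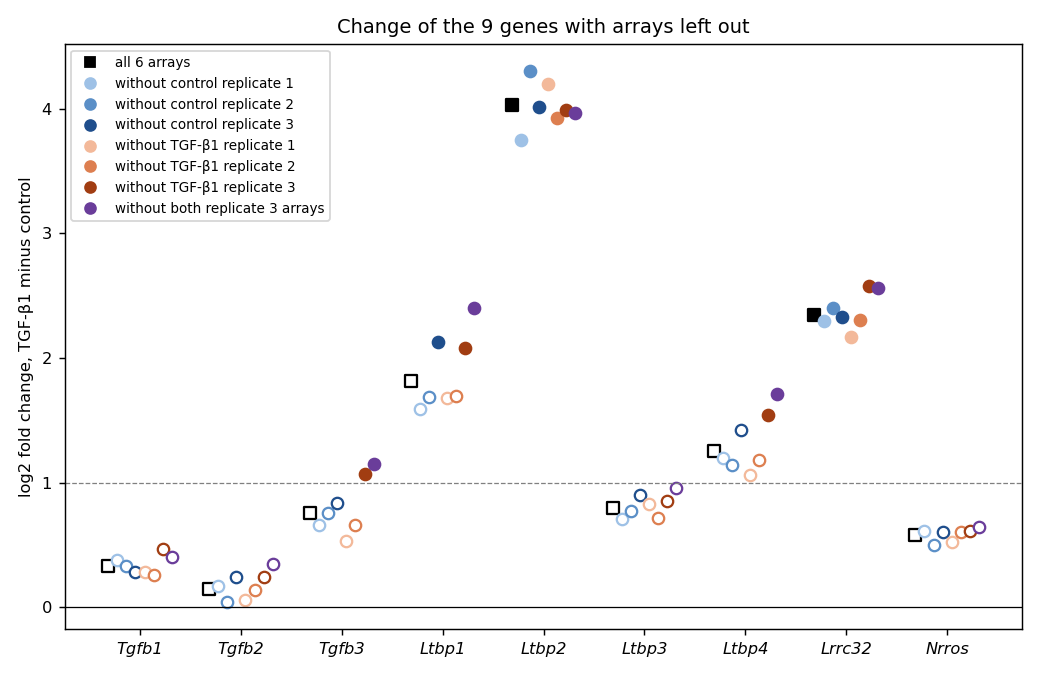
Log2 fold change, TGF-β1 minus control, of the 9 genes with all 6 arrays (squares), without each array in turn and without both arrays of replicate 3 (circles); filled points met the call of 2-fold or more (dashed line) and adjusted p under 0.05 in limma. Ltbp2 stays between 3.75 and 4.31 and Lrrc32 between 2.17 and 2.58, while Ltbp1, Ltbp4 and Tgfb3 are filled only in fits that leave out an array of replicate 3.

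Because GARP and LRRC33 are best known from blood and vessel cells, and LTBPs from fibroblasts, markers of these cells were read beside the changes. Of 12 T cell and platelet markers, 7 were not well above background on any array, among them Foxp3, Itga2b and Pf4, and 0 of the 5 tested were called, with Cd3e, Cd3d, Cd4, Lck and Gp1bb all at log2 differences from -0.70 to -0.04. The summed log2 level of that list was 9.89 to 9.99 in controls and 9.53 to 9.95 with TGF-β1. Of 12 endothelial markers, Cdh5, Kdr, Tek, Tie1, Emcn and Cldn5 had no array well above background, and 0 of the 4 tested were called. Those 4 were Pecam1 at 0.13, Egfl7 at 0.47, Vwf at 0.19 and Esam at -0.19, each with overlap between the groups. The summed level of this list, in which Egfl7 was the brightest gene, was 9.68 to 9.78 in controls and 9.76 to 10.4 with TGF-β1. Of 12 myeloid markers, 7 were not well above background on any array, among them Ptprc and Adgre1, and the 5 that were (Cd68, Csf1r, Itgam, Fcer1g and Aif1) were not called. Cd68 at 0.905 and Itgam at 0.43 lay wholly above the controls, as 12.9% of all genes did. Fcer1g was at 0.31, Csf1r at 0.01 and Aif1 at -0.47, with overlap. The summed myeloid level was 13.4 to 13.6 in controls and 13.7 to 13.8 with TGF-β1, and the part of these cell types in the Lrrc32 and Nrros differences was not tested.

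Of 12 fibroblast markers, Col1a1 and Col1a2, the chains of type I collagen, were called higher. Neither was well above background on a control array and both were on all 3 TGF-β1 arrays, so that their change is a lower bound, taken against the dimmest signal well above background on each control array. Col1a1 was at least 2.16-fold higher and Col1a2 at least 2.38-fold higher, with adjusted p of 0.0131 and 0.0162 in limma. Both passed the filter only through the TGF-β1 arrays, and their p-values rest on control signals at background. Thy1 was at 2.47 with an adjusted p of 0.176 in limma, Dcn at 1.00 and Pdgfra at 0.21, and for the other 7, Col3a1, Pdgfrb and Lum among them, no array was well above background. The summed level of the fibroblast list, in which Dcn was the brightest gene, was 9.21 to 9.37 in controls and 9.49 to 11.4 with TGF-β1. The part of fibroblasts in the differences of the LTBPs was not tested.

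The genes whose signals over the 6 arrays ran most like those of each called gene, and of the ligand with the largest difference, were found by the distance between log2 profiles centred on their own means. For Ltbp2 they were Mmp10, a matrix metalloproteinase, at a distance of 0.90, Ctsw, a cysteine protease, at 1.03, and Col25a1, a membrane collagen, at 1.04, where the median gene lay at 5.08. The control signals of Col25a1 were 1.57, 2.26 and 1.61, near background, and Ltbp2 was well above background on only 1 control array. These distances thus rest in part on control signals near background. For Lrrc32 they included Ccn2, a matricellular protein long used as a readout of TGF-β, at 0.38, and Ptprz1, a receptor phosphatase, at 0.42, against a median of 3.01. For Tgfb3 they were Plch2, a phospholipase C, at 0.12, Lif, a cytokine, at 0.20, and Serpinh1, the collagen chaperone, at 0.23, against a median of 1.37. Lif shows what the Tgfb3 profile looked like, with 7.69, 7.90 and 8.02 in controls and 9.10, 9.01 and 7.93 with TGF-β1, where again TGF-β1 replicate 3 lay among the controls.

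Other genes of the pathway were read from lists of proteins that process the latent complex, that share its matrix and that carry its signal. Of 17 genes for processing and activation, 15 were tested and 1, Itgb3, was called higher, where 1.19% of all genes were. Itgb3 encodes the β3 chain of the αvβ3 integrin, which binds latent TGF-β. Its signal was 9.56, 9.01 and 8.67 in controls and 12.20, 12.08 and 11.16 with TGF-β1, with no overlap. This was a log2 difference of 2.73 ± 0.33 (SE), with an adjusted p of 0.0141 in limma.

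Among the other genes of the list, 14 of the 15 differences were above 0 with Itgb3 included, 8 lay wholly above the controls, and the median was 0.75, where 45.8% of all genes were above 0 and 12.9% lay wholly above the controls. Thbs1, the activator thrombospondin-1, was at 1.30 with an adjusted p of 0.106 in limma. Itgb6, the β6 chain of the epithelial activating integrin, was at 1.23 with an adjusted p of 0.136 in limma. Furin, the convertase that cuts the precursor, was named after its values were seen, since it alone of the others passed on p, at a log2 difference of 0.82 and an adjusted p of 0.0475 in limma. The count of genes called in this list was 6 without TGF-β1 replicate 3, and 0 without control replicate 2, TGF-β1 replicate 1 or TGF-β1 replicate 2. No array was well above background for Mmp2 or Mmp9, proteases that can release TGF-β.

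Of 18 matrix partners and binders, 11 were tested and Fn1, fibronectin, to which LTBP1 is first laid down, was the 1 called higher, against 1.19% of all genes. Its signal was 13.88, 14.24 and 14.83 in controls and 16.84, 16.89 and 15.90 with TGF-β1. All 3 TGF-β1 arrays were above the controls, replicate 3 again the lowest. This was a log2 difference of 2.22 ± 0.34 (SE), with an adjusted p of 0.0279 in limma.

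The matrix list ran both ways, with 6 differences above 0 and 5 below, against 45.8% of all genes above 0, and a median of 0.38. Fbln2, a fibulin of elastic fibres, was at 1.34 with an adjusted p of 0.0627 in limma, and Vasn, which binds TGF-β outside the cell, was at 1.02 with an adjusted p of 0.0538 in limma. Fbln5, a further elastic fibre protein named after its values were seen, passed on p only, at 0.81 and an adjusted p of 0.0361 in limma. Fbn1, the fibrillin that LTBPs attach to, could not be tested, being well above background on 0 control arrays and 2 TGF-β1 arrays. With TGF-β1 replicate 3 left out 4 matrix genes were called, with control replicate 3 left out 3 were, and with any of the other 4 arrays left out 0 were.

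All 17 genes for receptors, Smads and feedback were tested, 13 with differences above 0, against 45.8% of all genes, and the median was 0.45. Pmepa1, a feedback inhibitor that is induced by TGF-β, was the 1 called higher, against 1.19% of all genes. Its signal was 13.50, 13.50 and 13.53 in controls and 14.88, 14.95 and 14.63 with TGF-β1. The log2 difference was 1.31 ± 0.12 (SE), with an adjusted p of 0.00619 in limma, and the controls differed from each other far less than the groups did. Acvrl1, a type I receptor, was at 1.00 with an adjusted p of 0.176 in limma, and Tgif1, a Smad corepressor, passed on p only, at 0.92 and an adjusted p of 0.0226 in limma. The count called in this list was 3 without TGF-β1 replicate 3 and 1 without each of the other 5 arrays.

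**Figure D4:**
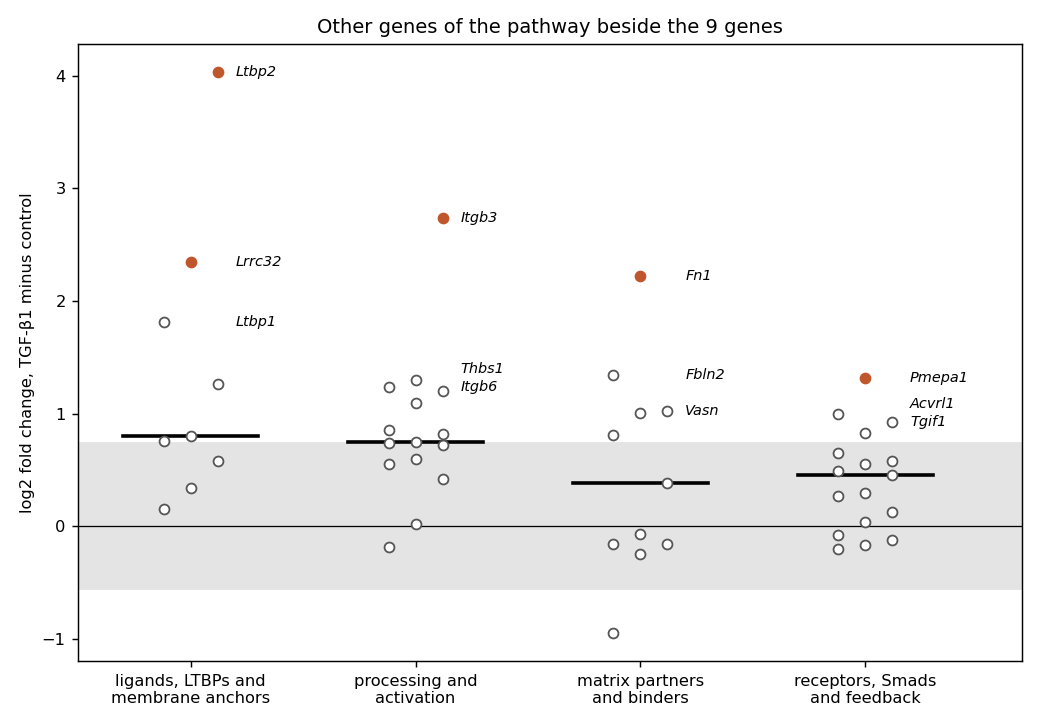
Log2 fold change, TGF-β1 minus control, of the 9 genes and of the tested genes of 3 lists of the pathway (vertical axis); each point is a gene, filled where called, black lines are list medians, and the grey band runs from the 5th to the 95th percentile of all genes tested. The medians are 0.80, 0.75, 0.38 and 0.45 from left to right, and each of the 3 lists holds 1 called gene: Itgb3, Fn1 and Pmepa1.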

How the data were processed

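RNA of 3 control and 3 TGF-β1-treated 2D-MAO cultures was hybridised to 1 array each, on 1 slide. The authors deposited spot intensity on a linear scale, background-subtracted and detrended by Agilent Feature Extraction 11.0.1.1 (per the file headers and the submitters' processing notes), with no normalisation between arrays. From there, control spots and 74 to 112 spots per array marked as uneven or as outliers were left out, log2 intensity was quantile-normalised as the study did, and a probe stayed in when 3 or more arrays were well above background for it (32460 of 56599). Accessions were matched to RefSeq symbols (32991 probes, 22910 genes), and genes reached only by other accessions were not analysed here. A gene's brightest kept probe stood for it. Groups were compared with limma 3.58.1 in R 4.3.3, with Benjamini-Hochberg adjustment over 14345 genes. The number of arrays limits the precision. No probe was saturated.

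Named were all 9 genes, each called gene and the 3 largest differences of each pathway list, the 3 nearest profiles (a gene that this selects is not reported here), and for each marker list the genes detected or not detected, whichever were fewer. The members and lists were chosen with earlier results of these data known. Alternatives were 75th percentile scaling, normexp background (offset 50, on the median brightness of spots), other probe filters, the mean of a gene's probes, other variance priors, array weights, the methods' t-test, replicate and slide row blocks, arrays left out, and 2 chosen after seeing the data, probes as the unit and signals floored at background. The script was tested on simulated data.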

Additional observations from a re-analysis of the deposited data

How the results depend on the processing

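Ltbp2 and Lrrc32 were called in every alternative that tested them except the methods' t-test after adjustment by Benjamini-Hochberg (log2 differences 4.03 and 2.35, adjusted p = 0.101 and 0.135), and detection on all 6 arrays gave no value for Ltbp2. Lrrc32 was at the edge of the call with normexp (1.00) and with no filter (adjusted p = 0.0492 in limma). Ltbp1, not called at first, met the call with 75th percentile scaling (1.67), normexp (1.78), detection on all 6 arrays (1.81), a variance prior with trend (1.81), array weights (2.26), the unadjusted t-test (1.81), without both replicate 3 arrays (2.40) and with probes as the unit (1.81) or signals floored at background (1.81), alternatives chosen after seeing the data. Ltbp4 did with normexp (1.22), the trend (1.26), array weights (1.60), the unadjusted t-test (1.26) and without both replicate 3 arrays (1.71), and Tgfb3 with array weights (1.11) and without both (1.15). Tgfb2 turned to -0.12 with 75th percentile scaling. The median of all genes lay between -0.09 and -0.02 under the alternatives.

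Of the 9 genes, 2 were called at first, 4 with normexp, the trend or the unadjusted t-test, 5 with array weights or without both replicate 3 arrays, and 0 with the adjusted t-test. Over all genes, 198 were called at first, 60 with no filter, 807 with array weights, 388 with the t-test unadjusted and 5 with it adjusted, and 856 without both replicate 3 arrays. For processing and activation the count of 1 became 2 (normexp, trend), 3 (t-test), 5 (array weights), 6 (without both) or 0 (no filter, adjusted t-test). For matrix partners it became 2 (all 6 arrays, floored signals), 3 (normexp, trend, t-test), 5 (array weights), 4 (without both) or 0 (no filter, adjusted t-test, replicate block). For receptors and Smads it became 2 (array weights, without both) or 0 (adjusted t-test), and their median of 0.45 became 0.32 (75th percentile), 0.38 (normexp) and 0.54 (without both). The matrix median of 0.38 ran from 0.18 (no filter) to 0.755 (without both), and the processing median of 0.75 from 0.61 (75th percentile) to 0.996 (without both).

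Leaving out each array in turn gave 55 to 706 genes called and 2 to 5 of the 9, with log2 differences of 0.26 to 0.47 for Tgfb1, 0.04 to 0.25 for Tgfb2, 0.53 to 1.07 for Tgfb3, 1.60 to 2.13 for Ltbp1, 3.75 to 4.31 for Ltbp2, 0.71 to 0.90 for Ltbp3, 1.06 to 1.55 for Ltbp4, 2.17 to 2.58 for Lrrc32 and 0.50 to 0.62 for Nrros. The lists had 0 to 6 (processing, median 0.69 to 0.89), 0 to 4 (matrix, 0.19 to 0.70) and 1 to 3 genes called (receptors, 0.33 to 0.45).

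Same-numbered control and TGF-β1 arrays deviated together with correlations of -0.01, 0.33 and -0.05, and arrays of different number with -0.37 to 0.25. With 3 arrays per group these values cannot tell whether the numbers pair the cultures, and the main fit did not pair them. With the replicate block, 103 genes were called and 2 of the 9.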
